A study of Mus musculus with 6 samples.

Results

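A set of 7 miRNAs known from white blood cells and from the resident macrophages of the brain were followed in the prefrontal cortex: mmu-miR-142a-3p, mmu-miR-142a-5p, mmu-miR-223-3p, mmu-miR-511-3p, mmu-miR-511-5p, mmu-miR-150-5p and mmu-miR-155-5p, written below without the prefix for mouse. They were chosen by name, for where they are known to be expressed, but with earlier results of these data known. All 7 were found among the 1189 entries listed for each library. The 7 mature strands come from 5 hairpins. The data are miRNA-seq libraries of male wild type C57BL/6 mice, 18 months old by the labels, with 3 mice in the PND group (postoperative neurocognitive disorder) and 3 in the CON group, 1 library per mouse. In PND mice 30 min of 1.5% isoflurane preceded an operation of 30 min under the same anesthetic, an exploratory laparotomy, with lidocaine cream and povidone iodine on the wound afterwards. CON mice received neither anesthesia nor surgery, so the effects of the anesthetic, the operation and the care of the wound cannot be told apart. Both groups also had an open field test and fear conditioning with foot shocks. They were killed after a Barnes maze test, in PND mice days after the operation, so earlier times were not sampled. Their vessels were flushed with saline through the heart before the cortex was taken. The question behind the comparison is whether the myeloid or leukocyte content of the cortex differed after surgery.

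miRNAs are short RNAs that guide Argonaute proteins to messenger RNAs, mainly through the seed near their 5′ end, and so lower the output of those messages. A hairpin can yield a mature strand from its 5p arm and another from its 3p arm, and usually 1 of them dominates. miR-142 is made throughout the blood lineage and, in the brain, mainly by microglia. miR-223 is abundant in neutrophils and monocytes, where it limits their activation. miR-511 is encoded inside Mrc1, the gene of the mannose receptor of macrophages. miR-150 is known from mature lymphocytes, where it restrains Myb, and miR-155 is induced in activated macrophages and lymphocytes.

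The mature sequences are shown because the 2 arms of 1 hairpin and the different families have to be told apart by sequence. They are RefSeq entries on GRCm38.p6, written 5′ to 3′, with the seed (bases 2 to 8) in capitals. RefSeq entries were matched for 5 of the 7 members.
miR-142a-3p: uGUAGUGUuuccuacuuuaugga
miR-142a-5p: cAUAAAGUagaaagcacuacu
miR-223-3p: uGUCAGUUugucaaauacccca
miR-511-3p: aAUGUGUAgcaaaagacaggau
miR-155-5p: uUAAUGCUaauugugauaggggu
The 5 seeds differ from each other, and none of the other 996 entries with a matched sequence carried any of them.

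The hairpin of miR-142a is shown because it gives 2 of the members, 1 from each arm. It is a RefSeq hairpin on the plus strand of GRCm38.p6, chr11:87756864-87756927, with the 5p arm and then the 3p arm in capitals.
Mir142: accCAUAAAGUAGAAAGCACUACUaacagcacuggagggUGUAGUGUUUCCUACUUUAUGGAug
In the GENCODE M21 annotation of GRCm38 the hairpin lies in an intron of the long noncoding RNA gene Mir142hg. On the opposite strand the annotation places Mir142b, and all 20 positions of miR-142b fall inside miR-142a-3p. miR-142b was not analysed here. Mir223 (chrX:96242817-96242926) lies in an exon of the noncoding gene F630028O10Rik, and Mir155 (chr16:84714140-84714204) in an exon of the noncoding gene Mir155hg. Mir511 (chr2:14261003-14261081) lies in an intron of Mrc1. Mir150 (chr7:45121757-45121821) overlapped no other gene. All 5 are on the plus strand.

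Levels are given in CPM, reads of a miRNA per 1000000 reads on all listed entries. The libraries held between 14849461 reads (CON mouse 2) and 19471226 reads (PND mouse 1), so 1 read was worth 0.0514 to 0.0673 CPM. Detection was judged against a floor of 3 reads per library, 0.154 to 0.202 CPM, which covers counting error only. CON mouse 2 stood apart from the other 5. Its TMM scaling factor, which corrects for a few miRNAs taking up the reads, was 0.860 against 0.992 to 1.07, and miR-128-3p alone took 29.2% of its reads against 17.6 to 23.2% elsewhere. Values on the members that moved most without this mouse are also given without it.

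The 7 members made up little of the cortical miRNA, and miR-150-5p made up most of that. Their summed level was 305, 333 and 337 CPM in PND mice 1 to 3 and 333, 318 and 284 CPM in CON mice 1 to 3, between 0.0284 and 0.0337% of the reads. miR-150-5p supplied 91.8 to 96.4% of the sum, so the sum mainly follows this 1 miRNA. The neuronal miR-124-3p was between 365 and 947 times the level of miR-142a-3p. In bulk tissue, fewer cells of a type and less RNA per cell cannot be told apart.

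In descending order of mean level came miR-150-5p, miR-142a-3p, miR-155-5p, miR-223-3p, miR-142a-5p and, near the floor, both arms of miR-511. miR-150-5p ranked between 112 and 134 of the 1189 entries. miR-142a-3p ranked between 319 and 390 and miR-155-5p between 393 and 407, and the former was the higher in every mouse, by least in CON mouse 2 (4.24 against 3.91 CPM). The next neighbours, miR-223-3p (440 to 530) and miR-142a-5p (480 to 578), overlapped in rank. miR-142a-5p was the higher of this pair in the 3 PND mice and miR-223-3p in the 3 CON mice. The arms of miR-511 could not be ordered at a few reads a library. Of the members, 2 had a mean of at least 10 CPM and 5 had at least 10 reads in 3 or more libraries. 656 of all entries had that many. The 2 that fell short were the arms of miR-511.

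**Figure D1:**
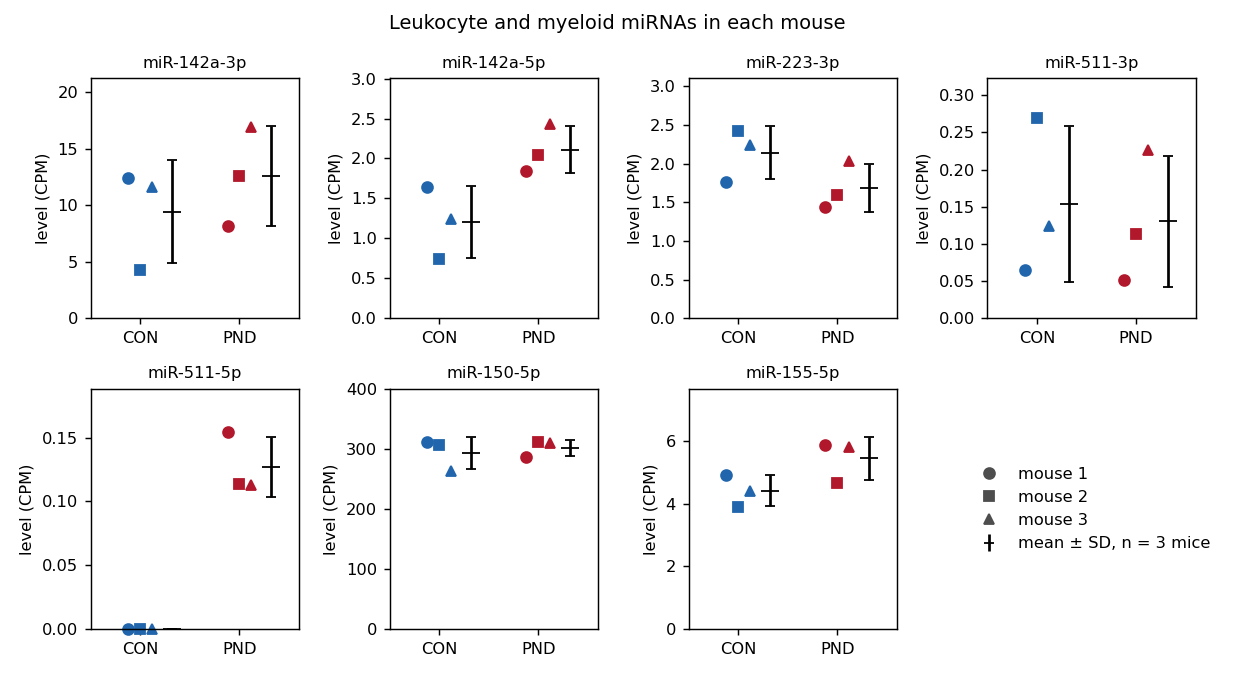
Level in CPM (linear axes from 0, a different scale in each panel) of the 7 members in 3 CON mice (blue) and 3 PND mice (red), with the marker shape giving the mouse number and the black bar the mean ± SD. The groups separate for miR-142a-5p and for miR-511-5p, which had 0 reads in all CON mice, and overlap for the other 5.

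The labels of the tissue were checked against markers of other cell types. All 5 neuronal miRNAs were present, with a summed level of 279465 to 370755 CPM, and both arms of the endothelial miR-126a summed to 11991 to 14372 CPM. Both miRNAs of mural cells summed to 6689 to 9898 CPM, the 3 of oligodendrocytes to 1384 to 1765 CPM, and the 5 of choroid plexus to 736 to 1224 CPM. Each of these lists exceeded the sum of the 7 members in every library.

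The 5 miRNAs of red blood cells summed to 191 CPM in PND mouse 1 and to 84.9 to 117 CPM in the other 5 mice. Their defining member, miR-451a, was 40.9 CPM in PND mouse 1 and 0.621 to 3.08 CPM elsewhere. PND mouse 1 had the lowest level of miR-223-3p of the 6 mice and the lowest of both miR-142a arms and of miR-150-5p among the PND mice. For miR-511-3p it shared the lowest count, 1 read and under the floor, with CON mouse 1. PND mouse 1 had the highest level of miR-155-5p (5.85 CPM, next 5.82 CPM in PND mouse 3) and of miR-511-5p (3 reads, at the floor). The part of blood in these levels was not tested. The 9 miRNAs of epithelial or olfactory tissue summed to 1649 CPM in CON mouse 1 and to 68.5 to 200 CPM elsewhere, and CON mouse 1 lay within the range of the other 5 mice for every member but miR-150-5p, where it was level with PND mouse 2 at 312 CPM, the highest value.

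**Figure D2:**
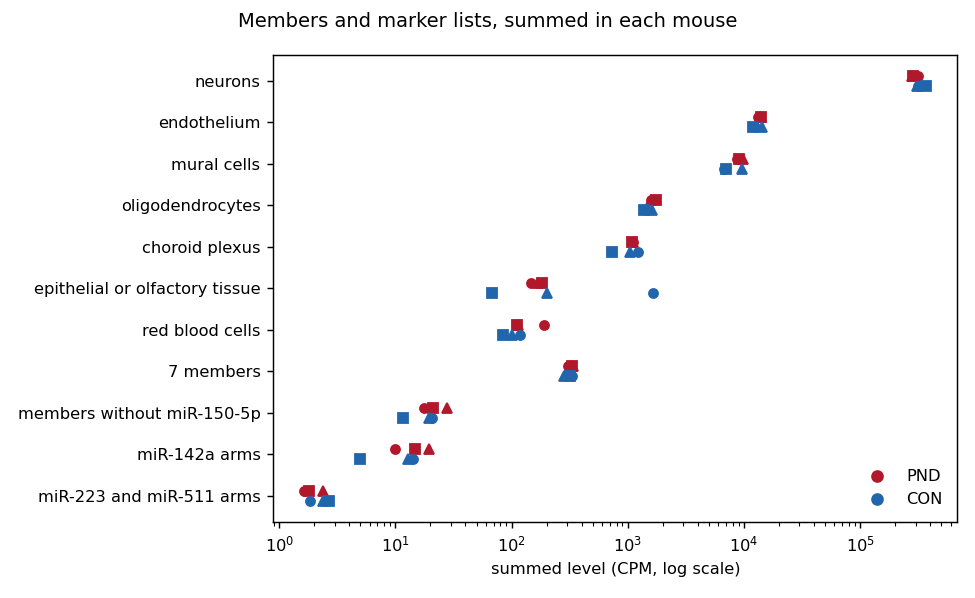
Summed level in CPM (log scale) of the marker lists and of the members in each mouse, PND in red and CON in blue, with circles, squares and triangles for mice 1, 2 and 3. The 7 members lie between 284 and 337 CPM in every mouse, whereas without miR-150-5p they span 11.6 to 27.6 CPM, lowest in CON mouse 2.

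Between PND and CON mice no member differed after adjustment over all entries. On the log2(CPM + 1) scale, 5 of the 7 were higher in PND and 2 lower, which becomes 4 and 3 with TMM factors or DESeq2 size factors because miR-150-5p turns to lower, and 6 and 1 without CON mouse 2, where miR-511-3p turns to higher. The median log2 fold change of the members was 0.17, against 0.05 for all 1189 entries, of which 776 were higher in PND. That median is the value of miR-511-5p, which was at or under the floor in every library, and the middle value of the 5 members from other hairpins is 0.25, that of miR-155-5p. The median was 0.14 for the 361 entries averaging 10 CPM or more. TMM factors lower that median by 0.12 and DESeq2 size factors by 0.15. Without CON mouse 2 the medians were 0.08 for the members, 0.03 for all entries and 0.04 for the 361. The sum of the 7 differed by 0.06 on the log2 scale and by -0.06 with TMM.

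With limma, 2 of the 7 members, miR-142a-5p and miR-511-5p, had an unadjusted p under 0.05 and were higher in PND, where 4.04% of all entries did the same. No member had such a p and was lower, against 1.09% of all entries. In limma on log2(CPM + 1) no member passed both limits used by the study, an unadjusted p under 0.05 and a fold change over 2, which 0.0841% of the entries passed. miR-511-5p, with 3 reads or fewer in every library, did pass both in edgeR's exact test (2.86% of all entries), in edgeR's quasi-likelihood test and in limma-voom (2.69% each) and in limma with a pseudocount of 0.1 (1.85%). No member passed both in DESeq2 (0.925%). No member had an adjusted p under 0.05 in limma, against 0.421% of the entries, and limma's adjusted p-values of the members ran from 0.768 to 0.958. edgeR's quasi-likelihood test, edgeR's exact test and limma-voom gave the same 2 members an unadjusted p under 0.05, and DESeq2 gave 0. In that order, these tools gave such a p to 50, 41, 51 and 28 of all entries. Higher in PND among those were 28, 24, 33 and 20 entries. The tools were run on the same reads, so their calls are not independent. None of these tools gave a member an adjusted p under 0.05. In limma 78.7% of the entries with an unadjusted p under 0.05 were higher in PND, a share that falls to 65.4% with TMM factors, to 59.6% with DESeq2 size factors and to 57.5% without CON mouse 2. Every PND mouse was above every CON mouse for the same 2 members, which also held for 7.91% of all entries. For no member was every CON mouse above every PND mouse, which held for 2.02% of the entries.

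**Figure D3:**
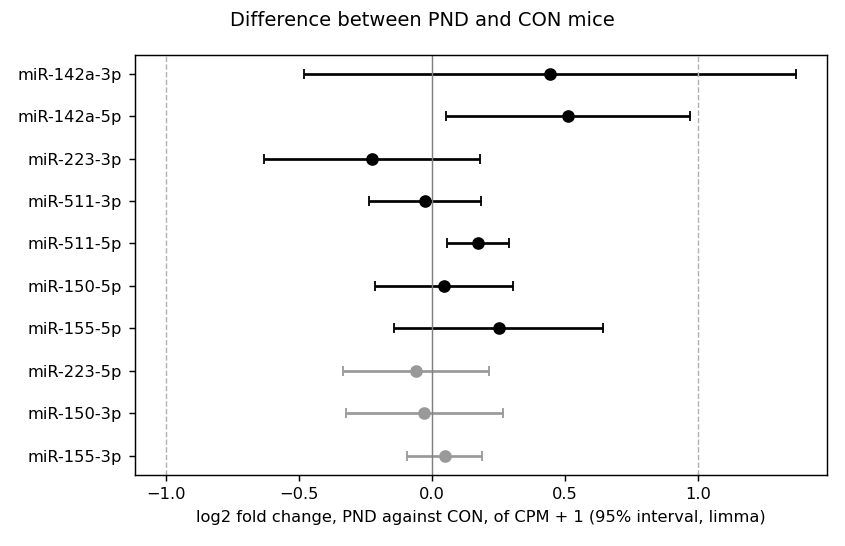
log2 fold change of PND against CON on CPM + 1 with its 95% interval from limma, for the 7 members (black) and 3 other arms of their hairpins (grey), dashed lines marking a 2-fold difference. The intervals of miR-142a-5p and miR-511-5p lie above 0, and that of miR-142a-3p is the widest.

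miR-142a, the miRNA of blood-derived cells and microglia, had an unadjusted p under 0.05 for its 5p arm and not for its 3p arm. miR-142a-5p was 1.85, 2.05 and 2.43 CPM in PND mice 1 to 3 and 1.64, 0.741 and 1.24 CPM in CON mice 1 to 3. All PND mice were higher than all CON mice, with CON mouse 2 the lowest of the 6. The means were 2.11 ± 0.294 and 1.21 ± 0.449 CPM (SD, n = 3 each), from 36, 36 and 43 reads against 25, 11 and 20. The log2 fold change was 0.51 ± 0.20 (SE; 95% interval 0.05 to 0.97) with an unadjusted limma p of 0.0336 and an adjusted p of 0.768. The exact permutation test over the 6 mice, two-sided, gave its smallest possible p of 0.1.

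miR-142a-3p, the more abundant arm, was 8.17, 12.6 and 16.9 CPM in PND mice and 12.4, 4.24 and 11.6 CPM in CON mice. PND mouse 3 was the highest and CON mouse 2 the lowest, and the groups overlapped. With means of 12.6 ± 4.39 and 9.43 ± 4.51 CPM, the log2 fold change was 0.44 ± 0.40 (SE; 95% interval -0.48 to 1.37), with an unadjusted limma p of 0.299 and an adjusted p of 0.768. The difference was within the spread between mice. The test of miR-142a-5p passing and that of miR-142a-3p failing does not show that the arms changed unequally. Their ratio, tested directly, differed by 0.35 on the log2 scale (exact permutation test, two-sided, p = 0.4). That ratio was 0.54 without CON mouse 2, 0.16 without PND mouse 1, 0.18 without CON mouse 3 and 0.07 as a ratio of CPM + 1.

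Both values depend on CON mouse 2. Without it the log2 fold change of miR-142a-3p was 0.01 and that of miR-142a-5p 0.35, no longer with an unadjusted p under 0.05 (limma, adjusted p = 0.916). With CON mouse 2 and PND mouse 1 both left out, a choice made after seeing the data, miR-142a-5p differed by 0.41, also without such a p (limma, adjusted p = 0.598), and miR-142a-3p by 0.26. Leaving out any other single mouse but CON mouse 1 also took the unadjusted p of miR-142a-5p above 0.05.

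Base composition moved with the same mouse. Among entries averaging 10 CPM or more for which a sequence was matched, the 54 with at most 40% G and C had a median deviation of -0.50 in CON mouse 2 and 0.35 in PND mouse 3, as log2(CPM + 1) minus the mean of the 6 mice. The 47 entries over 60% G and C had medians of -0.22 and -0.03 in these mice. miR-142a-3p (34.8% G and C) deviated by -1.10 and 0.68, and miR-142a-5p (33.3%) by -0.58 and 0.40. Adding 1 CPM shrinks the deviations of the lower 5p arm more, so these sizes do not compare the arms. In CPM, PND mouse 3 was 3.99 times CON mouse 2 for miR-142a-3p and 3.28 times for miR-142a-5p. Other AU-rich members moved less: miR-155-5p (34.8%) deviated by -0.26 and 0.21. miR-511-3p (36.4%), at a few reads a library, deviated by 0.16 and 0.11. Of the 54 AU-rich entries 48 were higher in PND, with a median log2 fold change of 0.28, and without CON mouse 2 45 were higher, with a median of 0.07. The part of base composition in the miR-142a values was not tested.

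**Figure D4:**
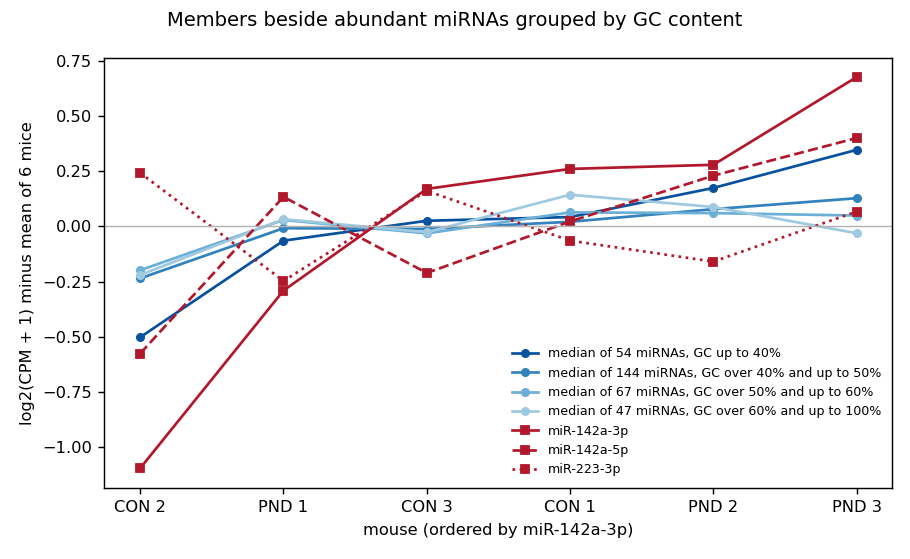
Deviation of log2(CPM + 1) from the mean of the 6 mice, with mice ordered by miR-142a-3p, for the median of abundant miRNAs in 4 classes of GC content (blue) and for miR-142a-3p, miR-142a-5p and miR-223-3p (red). The class of at most 40% GC runs from -0.50 in CON mouse 2 to 0.35 in PND mouse 3, and miR-142a-3p from -1.10 to 0.68 over the same mice, while miR-223-3p was at 0.24 in CON mouse 2. Adding 1 CPM shrinks the deviations of the low miR-142a-5p and miR-223-3p more than those of miR-142a-3p.

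miR-223-3p, the neutrophil and monocyte miRNA, was 1.44, 1.59 and 2.03 CPM in PND mice 1 to 3 and 1.77, 2.42 and 2.24 CPM in CON mice 1 to 3. CON mouse 2, the lowest mouse for miR-142a, was the highest here, and the groups overlapped. The means were 1.69 ± 0.309 in PND and 2.14 ± 0.338 CPM in CON, from 28 to 36 reads and 27 to 36 reads a library. The log2 fold change was -0.23 ± 0.17 (SE; 95% interval -0.63 to 0.18; limma p = 0.232, adjusted p = 0.768), and the exact permutation test, two-sided, gave p = 0.2. The counts of mice within a group differed by no more than counting noise (chi-square divided by its degrees of freedom, 0.923). For a given relative spread this value rises with the reads. It was 30.5 for miR-142a-3p at 63 to 300 reads and 24.1 for miR-150-5p at 4248 to 5601 reads. For miR-142a-5p, at 11 to 43 reads, it was 1.63. At 27 to 36 reads a modest spread between mice cannot be told from counting noise. The interval reached up to 1.13-fold on the CPM + 1 scale, to 1.22-fold without CON mouse 2 and to 1.35-fold without both CON mouse 2 and PND mouse 1. At this level adding 1 CPM shrinks fold changes, so these limits are too narrow for a change in CPM itself. The log2 fold change was -0.33 with a pseudocount of 0.1. With their own scaling, edgeR's quasi-likelihood test gave -0.48 and DESeq2 -0.52.

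The miR-511 arms, from the intron of the mannose receptor gene, were close to undetected. miR-511-3p had 1, 2 and 4 reads in PND mice and 1, 4 and 2 reads in CON mice, and 0.130 ± 0.0884 against 0.153 ± 0.105 CPM. Its log2 fold change of -0.03 (limma p = 0.768, adjusted p = 0.958, exact permutation p = 0.7) turned to 0.09 without CON mouse 2 and PND mouse 1. miR-511-5p had 3, 2 and 2 reads in PND mice and 0, 0 and 0 in CON mice. Every PND mouse was therefore above every CON mouse, but no library exceeded the floor of 3 reads. The fold changes given for it elsewhere are therefore no measure of size. Taken singly, a CON library with a count of 0 allows 0.186 to 0.202 CPM, and the PND level was 0.127 ± 0.0236 CPM. Its unadjusted limma p was 0.00979 and its adjusted p 0.768.

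miR-150-5p, known from mature lymphocytes, was 288, 312 and 310 CPM in PND mice 1 to 3 and 312, 307 and 264 CPM in CON mice 1 to 3. Its level was 18.3 to 72.3 times that of miR-142a-3p, which is made throughout the blood lineage, though such ratios also depend on cloning efficiency. Which cells of the cortex it came from was not tested, so its level is not a measure of lymphocytes. The groups overlapped, with CON mouse 3 the lowest. The means were 303 ± 13.4 and 294 ± 26.3 CPM, from 4248 to 5601 reads a library. The log2 fold change was 0.05 ± 0.11 (SE; 95% interval -0.21 to 0.31; limma p = 0.694, adjusted p = 0.941; exact permutation p = 0.7), and it was -0.08 with TMM and -0.11 with DESeq2 size factors. The interval leaves room for a difference of up to 1.24-fold upward and 0.862-fold downward. This was among the steadier abundant miRNAs, with a coefficient of variation of 6.46% over the 6 mice against a median of 13.7% for the 361 entries, of which 55 were lower. miR-142a-3p varied by 39.4%, and 15 of the 361 entries varied more. Without CON mouse 2 it varied by 25.3%, and 16 entries varied more.

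miR-155-5p, the miRNA of activated leukocytes, was 5.85, 4.66 and 5.82 CPM in PND mice 1 to 3 and 4.91, 3.91 and 4.41 CPM in CON mice 1 to 3. PND mice 1 and 3 were above all CON mice, and PND mouse 2 was below CON mouse 1. With means of 5.44 ± 0.679 and 4.41 ± 0.502 CPM, the log2 fold change was 0.25 ± 0.17 (SE; 95% interval -0.14 to 0.64; limma p = 0.179, adjusted p = 0.768; exact permutation p = 0.2), within the spread between mice. It was 0.15 with TMM factors.

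The other arms of these hairpins added few reads. miR-223-5p had 11, 13 and 7 reads in PND mice and 9, 9 and 11 in CON mice, so the 5p share of miR-223 reads was 23.9% over all mice (exact binomial 95% interval 18.8 to 29.7%). For miR-142a the 5p share was 13.2% (11.4 to 15.2%), between 9.66 and 18.5% in single mice. miR-150 and miR-155 came almost wholly from the 5p arm, 99.7 and 99.2% of their reads. For miR-511 the 5p arm gave 7 of 21 reads over all mice (14.6 to 57.0%), all 7 in PND. No arm ratio is given for miR-511, since the 5p arm had 0 reads in all CON mice. The ratio of the miR-223 arms differed by 0.16 (exact permutation p = 0.7).

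Over the 6 mice no pair of members had an adjusted p under 0.05. With 6 mice the permutation p cannot fall low enough for 1 pair alone to pass after adjustment over the 21 pairs. The adjusted values therefore cannot show that a pair was uncorrelated. Of the 21 pairs 12 had a positive Pearson r on log2(CPM + 1), with a median of 0.09 and a range from -0.72 to 0.84. The strongest was miR-142a-5p with miR-155-5p, r = 0.84 (permutation p = 0.0361, adjusted 0.408) and Spearman rho = 0.71 (permutation p = 0.136, adjusted 0.459). It fell to 0.55 on TMM-scaled CPM and to 0.47 without PND mouse 3 and CON mouse 2, so it rests on those mice. The arms of miR-142a gave r = 0.83 (permutation p = 0.075, adjusted 0.408) and rho = 0.83 (p = 0.058, adjusted 0.459), and r = -0.15 without the same 2 mice. miR-223-3p and miR-142a-3p, both of myeloid cells, gave r = -0.31 (permutation p = 0.558, adjusted 0.786) and rho = -0.26 (p = 0.658, adjusted 0.864), and r = 0.10 without PND mouse 1 and CON mouse 2. Over the 21 pairs 0 adjusted p-values were under 0.05, and 1 unadjusted Pearson p and 1 unadjusted Spearman p were, the latter for miR-223-3p with miR-511-3p at a few reads a library (rho = 0.89, permutation p = 0.033, adjusted 0.459).

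The proportions of the members differed from mouse to mouse. miR-142a-3p was 1.75 times the level of miR-223-3p in CON mouse 2 and 5.19 to 8.33 times in the other 5 mice. miR-150-5p was 118 to 200 times miR-223-3p and 18.3 to 72.3 times miR-142a-3p. Cloning efficiency differs between sequences, so these ratios compare mice rather than molecules. Pairs of members had r of either sign, and 6 mice cannot show whether the members moved together or apart. A shared pattern was therefore not shown, and the members are described here by name and not as 1 measure of leukocyte content.

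**Figure D5:**
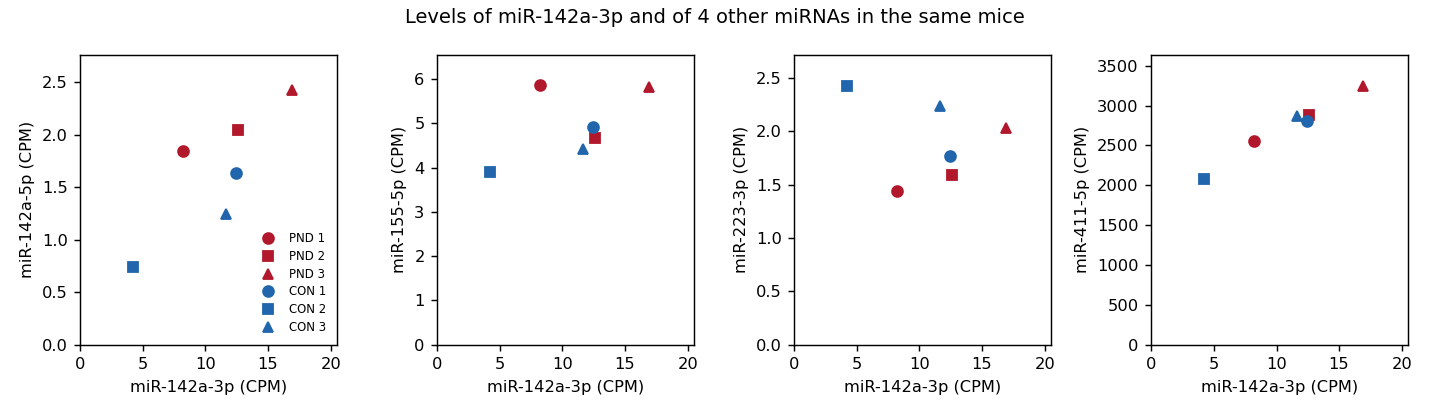
Levels in CPM (linear axes from 0) of miR-142a-5p, miR-155-5p, miR-223-3p and miR-411-5p against miR-142a-3p, 1 point per mouse, PND in red and CON in blue. miR-411-5p, picked for its likeness from abundant entries that are not members, has r = 0.993 with miR-142a-3p. miR-223-3p is highest in CON mouse 2, where miR-142a-3p is lowest.

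Entries most like miR-142a-3p were sought only among entries that are not members, so no member could be returned. Among 359 other entries averaging 10 CPM or more, Pearson r over the 6 mice was highest for miR-411-5p (0.993), miR-376b-5p (0.991) and miR-431-5p (0.990), and still 0.95 to 0.96 without PND mouse 1 and CON mouse 2. The genes of these 3 lie within 133034 bp of each other on chromosome 12 of GRCm38. miR-411-5p was 2551, 2877 and 3251 CPM in PND mice and 2807, 2085 and 2873 CPM in CON mice. In all, 106 of the 359 entries had r above 0.9 with miR-142a-3p, so likeness to it was common in these libraries. Without CON mouse 2 the 3 named entries had r of 0.958 to 0.974, and 33 of the 359 were above 0.9. The closest to miR-150-5p were miR-23a-3p (0.981), miR-195a-5p (0.844) and miR-132-5p (0.791), and 1 of the 359 exceeded 0.9. Without PND mouse 1 and CON mouse 3 these fell to 0.387, -0.912 and 0.766.

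Of a list of 12 other immune-related miRNAs 11 were found, and 0 had an unadjusted limma p under 0.05 in either direction. edgeR's exact test also gave 0, and edgeR's quasi-likelihood test, DESeq2 and limma-voom gave 1, miR-125a-5p, lower in PND. Their log2 fold changes ran from -0.21 for miR-125a-5p to 0.37 for miR-21a-5p, with a median of 0.03. miR-146a-5p, a brake on inflammatory signaling through NF-kB, was 1101 ± 89.2 CPM in PND and 1106 ± 52.2 CPM in CON. miR-21a-5p, which rises in many injured tissues, was 4659 ± 672 against 3637 ± 794 CPM (limma p = 0.0759, adjusted p = 0.768, exact permutation p = 0.2). In limma the marker lists of neurons, red blood cells, endothelium, oligodendrocytes, choroid plexus and epithelial or olfactory tissue likewise held 0 entries with such a p. Mural cells held 1 of 2, miR-145a-5p, with a log2 fold change of 0.34 (limma p = 0.0489, adjusted p = 0.768, exact permutation p = 0.1). The tests on reads differed for some of these lists, and edgeR's quasi-likelihood test had 6 of the 9 epithelial or olfactory miRNAs lower in PND, the list that was high in CON mouse 1 alone.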

How the data were processed

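Small RNA was sequenced from the prefrontal cortex of 3 PND and 3 CON mice, 1 library per mouse. Groups came from the treatment label. The labels name a total RNA kit and the study's methods a small RNA kit, and the sample names carry another age in months than the age label. The authors deposited CPM per miRNA, called TPM in their methods, from clean reads of 18 to 40 nt aligned with Bowtie and matched to miRBase, with TMM scaling stated. Each deposited column sums to 1000000 within rounding, so no TMM scaling is visible between libraries. The submitters' processing notes list Bowtie 0.12.2 and the builds mm8 and mm9. The miRBase release and the rule for reads with several matches are not given in the sources used here. The files hold no coordinates, and positions are those of GENCODE M21 on GRCm38.

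All values (100%) were whole multiples of 1 read within 0.1 read, which gave the reads. The main test compared PND with CON in all 1189 entries, unfiltered, by limma (version 3.58.1 under R 4.3.3) with a mean-variance trend on log2(CPM + 1), with Benjamini-Hochberg adjustment over all entries. This scale understates changes of low miRNAs. Single values were compared by exact two-sided permutation tests over the 6 mice (Python 3.11.15, scipy 1.17.1), whose smallest p is 0.1. Arm ratios used reads + 0.5. Read intervals are exact binomial (Clopper-Pearson) and cover counting error only. edgeR 4.0.16, DESeq2 1.42.0 and limma-voom on the recovered reads, other filters, pseudocounts and scalings, a replicate block and leaving out each mouse were alternatives. The scripts were tested on simulated data.

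The miRNAs named are the 7 members, the other arms of their hairpins, a list of 12 other immune-related miRNAs, marker lists of neurons, red blood cells, endothelium, mural cells, oligodendrocytes, choroid plexus and epithelial or olfactory tissue, and the 3 entries with the highest r with each member of mean 10 CPM or more. The members and lists were chosen with earlier results of these data known. Leaving out CON mouse 2 and PND mouse 1 together, and the spread, likeness and base composition without CON mouse 2, were chosen after seeing the data.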

Additional observations from a re-analysis of the deposited data

How the results depend on the processing

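Entries past both limits numbered 1 in the test reported, 22 with a pseudocount of 0.1, 0 with a minimum mean of 10 CPM or with limma without trend, 2 with the replicate block, 32 with edgeR's quasi-likelihood test, 34 with edgeR's exact test, 11 with DESeq2, 32 with limma-voom, and 0 to 1 with each mouse left out. Entries with an unadjusted p under 0.05 numbered 61, and 5 with the minimum mean, 32 with at least 10 reads in 3 libraries, 28 with DESeq2 and 31 (without PND mouse 2) to 91 (without CON mouse 1) with each mouse left out. Of the members 2 had such a p, and 0 with the minimum mean, 1 with the read minimum, 1 with the replicate block, 0 with DESeq2, and 1 to 2 with each mouse left out. Both filters leave out members, which lowers these counts. The other causes were not tested. The log2 fold change of miR-142a-5p, 0.51, was unaltered at 0.51 with the replicate block (limma, adjusted p = 0.746), 0.67 in DESeq2 (adjusted p = 0.983) and 0.41 without CON mouse 2 and PND mouse 1 (limma, adjusted p = 0.598), none with an unadjusted p under 0.05, and ran from 0.35 to 0.65 with each mouse left out. For miR-511-5p, at or under the floor in every library, DESeq2 gave 3.27 (adjusted p = 0.983). With 0 reads in all CON mice this is no measure of size, and edgeR's exact test gave no finite fold. Directions turned for miR-511-3p (0.094 without those 2 mice, -0.088 to 0.044 with each mouse left out), for miR-150-5p (-0.076 with TMM, -0.11 with DESeq2 size factors, -0.087 in edgeR's quasi-likelihood test, -0.12 in DESeq2, -0.074 in limma-voom, -0.030 to 0.090 with each mouse left out) and for the sum of the 7 (-0.059 with TMM, -0.022 without miR-128-3p in the totals, -0.0026 to 0.11 with each mouse left out). The r of the miR-142a arms was 0.94 on deviations from the group means and -0.15 without the 2 farthest mice. That of miR-142a-5p with miR-155-5p was 0.55 with TMM, 0.63 on deviations and 0.47 without the 2 farthest mice, and that of the miR-511 arms turned from -0.24 to 0.40. In all, 157 alternatives kept direction and side of the threshold or, for counts, were not classed as moved, the 91 against 61 entries included. Whether replicate numbers pair the mice cannot be settled from so few mice. Deviations of same-numbered mice correlated at -0.13, 0.12 and 0.51, the last the highest of all PND and CON pairs. PND mouse 1 correlated best with CON mouse 2. Depth limits miR-223-3p to 28 to 36 reads in PND mice, miR-142a-5p to 11 to 43 reads a library, and each miR-511 arm to 4 or fewer.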
